A study of Homo sapiens with 6 samples.

Results

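The peaks on the human autosomes 4, 13, 18 and 21 are described, in ATAC-seq peak lists of neural progenitor cells (NPCs). The members were chosen by where peaks were called: each peak whose chromosome field names one of these 4 chromosomes is one, whatever its size or score. They number 732 of 7880 peaks in WT NPCs, 2303 of 25439 peaks in dKO NPCs and 1750 of 16948 peaks in dKO NPCs with BAF53B, or 4785 of 50267 in the 3 lists. The other 18 autosomes hold 7040, 22740 and 14985 peaks in the same order and serve as the comparison.

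ATAC-seq cuts and tags open DNA with the Tn5 transposase. The NPCs were derived from H1, a human embryonic stem cell line, by dual SMAD inhibition. WT NPCs carried both demethylases. In dKO NPCs the catalytic domains of UTX (KDM6A) and JMJD3 (KDM6B), enzymes that remove a repressive methyl mark from histone H3, were deleted by genome editing, and the line is a drug-selected clone in which UTX was deleted on top of a JMJD3 deletion. The BAF53B group was the same dKO genotype with a lentivirus for BAF53B (ACTL6B), an actin-like protein that the BAF remodeller carries in neurons. Clone and genotype therefore cannot be told apart, and the dKO group is the control that shares both deletions with the BAF53B group. The sample titles name no control virus for dKO, so virus transduction and BAF53B cannot be told apart either. Titles of WT and dKO read NPC2 and those of BAF53B read NPC, and they do not say what this difference means. Each group had 2 replicates, and both share 1 peak list. The values below hence have no replicate check, SD or p-value, the intervals are 95% intervals that cover counting error only, and peaks of 1 list are not replicates.

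Human chromosomes differ several-fold in gene density. Gene-poor chromosomes tend to be rich in A and T, to hold long stretches without coding genes (gene deserts) and to lie toward the edge of the nucleus. In ATAC-seq, open promoters are mostly GC-rich and broad, whereas open enhancers (distal elements) are smaller and more cell type-specific. The label gene-poor was checked against the GENCODE annotation. Over sequenced bases, chromosome 13 had 3.30 protein-coding genes per Mb, chromosome 18 had 3.32 and chromosome 4 had 3.99, the 3 lowest of 22 autosomes. Chromosome 21 had 5.49 and took the 9th place, behind chromosome 8 with 4.85, so that by this measure it is not among the gene-poorest autosomes. Over its full length, unsequenced bases included, it had 4.71 genes per Mb and took the 4th place, behind chromosomes 4, 13 and 18. Of the 220 genes of chromosome 21, 49 are keratin-associated protein genes, and without them its density was 4.27 genes per Mb. The 4 chromosomes had 38.2 to 40.9% GC, against 47.9% on gene-dense chromosome 19.

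The labelled cell type was checked at marker promoters. Of 11 neural progenitor markers, VIM, which encodes the filament protein vimentin, had a promoter peak in all 3 lists (pileups of 34, 37 and 52 fragments), whereas PAX6, SOX3, NES and HES5 had none in any list. Peaks were called at 1, 7 and 4 of the 11 in WT, dKO and BAF53B, where 29.4%, 57.3% and 46.1% of all protein-coding genes of the autosomes other than 4, 13, 18 and 21 had one, so these counts do not set the markers apart. Of 4 pluripotency markers, POU5F1, NANOG and DPPA4 had none, and LIN28A had one in dKO and in BAF53B. Of 5 mesenchymal markers, promoter peaks were called at 1 in WT, 3 in dKO and 2 in BAF53B, and their part in any result below was not tested.

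Sequences of a few promoter and distal members are shown as examples. The windows that follow reach 50 bp to either side of the summit (hg38, plus strand), with CG dinucleotides in capitals, for the promoter peak of highest fold in the dKO list on chromosomes 4, 13 and 18 whose window touches no annotated exon. They are shown because they carry the strongest promoter signal of these chromosomes. WDR19, a ciliary transport gene, lies at chr4:39182327-39182427. CAB39L, which encodes a scaffold of the kinase LKB1, lies at chr13:49444100-49444200 beside SETDB2. CXXC1, which encodes a protein that binds unmethylated CG sites, lies at chr18:50287873-50287973.
WDR19: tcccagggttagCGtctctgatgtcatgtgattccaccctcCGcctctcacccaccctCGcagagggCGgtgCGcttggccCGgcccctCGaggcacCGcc
CAB39L: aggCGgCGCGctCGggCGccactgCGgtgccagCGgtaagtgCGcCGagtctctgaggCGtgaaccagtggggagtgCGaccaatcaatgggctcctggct
CXXC1: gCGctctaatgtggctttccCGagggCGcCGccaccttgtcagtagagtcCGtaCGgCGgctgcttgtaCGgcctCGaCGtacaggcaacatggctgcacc

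These windows hold 8, 11 and 10 CG dinucleotides and are 63.4 to 68.3% GC. The distal windows below hold 0 to 4, but they were picked for the letters in capitals. These counts are therefore no general comparison of promoter and distal members. The capitals of the distal windows mark the AP-1 letters TGAGTCA, which read TGACTCA on the other strand, the site of the FOS and JUN family of factors. On chromosomes 4, 13 and 18 they are the exon-free distal peaks of highest fold with these letters in the WT list, followed by those of chromosomes 4, 13 and 21 in the BAF53B list and of chromosome 18 in the dKO list, and each is named after the nearest protein-coding gene.
TSPAN5, WT list, chr4:98522736-98522836: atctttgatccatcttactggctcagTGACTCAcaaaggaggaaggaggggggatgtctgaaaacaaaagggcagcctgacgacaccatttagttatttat
OLFM4, WT list, chr13:54029421-54029521: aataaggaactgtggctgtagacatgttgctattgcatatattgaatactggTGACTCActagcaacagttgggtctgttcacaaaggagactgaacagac
TCF4, WT list, chr18:55790407-55790507: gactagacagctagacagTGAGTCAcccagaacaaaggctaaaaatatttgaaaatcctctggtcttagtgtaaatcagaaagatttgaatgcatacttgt
STOX2, BAF53B list, chr4:183988150-183988250: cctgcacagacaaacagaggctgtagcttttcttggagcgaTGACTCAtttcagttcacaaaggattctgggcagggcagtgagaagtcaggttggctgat
MEDAG, BAF53B list, chr13:30873165-30873265: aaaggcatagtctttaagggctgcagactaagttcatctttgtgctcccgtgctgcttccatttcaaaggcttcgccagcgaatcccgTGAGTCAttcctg
PIGP, BAF53B list, chr21:37060468-37060568: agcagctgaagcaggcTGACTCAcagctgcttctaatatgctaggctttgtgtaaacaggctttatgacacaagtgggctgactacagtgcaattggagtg
LMAN1, dKO list, chr18:59402538-59402638: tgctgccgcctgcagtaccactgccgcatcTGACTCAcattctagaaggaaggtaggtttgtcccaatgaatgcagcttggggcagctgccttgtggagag

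The strongest promoters were open in every list. At WDR19 the summit pileup, the number of fragments over the peak's highest base, was 76 in WT, 104 in dKO and 95 in BAF53B, and the deposited fold over the local background was 7.52, 10.5 and 8.09. CAB39L had pileups of 78, 134 and 96, and its peak (chr13:49443751-49444482 in dKO) is shared with SETDB2, which starts on the opposite strand. CXXC1 had 71, 161 and 100. The dKO list was highest and WT lowest at all 3. HSPA13, which encodes a heat shock protein and had the promoter peak of highest fold on chromosome 21 in WT and dKO (chr21:14382593-14383874 in dKO), had pileups of 70, 117 and 78. In the BAF53B list the promoter peak of highest fold was at CYB5A, a cytochrome gene, on chromosome 18 (84 fragments, against 42 in WT and 94 in dKO) and at MORC3, a chromatin ATPase gene, on chromosome 21 (89, against 57 and 86).

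Most of the distal sites shown were picked by their fold in WT or in BAF53B, and the promoters by their fold in dKO, so the order of the lists is not comparable between them. The intronic TSPAN5 site had 44 fragments in WT and no peak in the other lists, and the site 126 kb from TCF4 had 31 in WT and none elsewhere. The desert site 1001 kb from OLFM4 had 29 in WT, no peak in dKO and 34 in BAF53B. The STOX2 site had 31 in WT, none in dKO and 53 in BAF53B, and the MEDAG site was called in BAF53B only, with 62. Only the sites near PIGP and LMAN1 were called in all 3 lists, with 49, 36 and 65 fragments at the former and 39, 69 and 50 at the latter. These sites were picked by fold within 1 list, so their values describe them and count nothing.

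The share of each list on the 4 chromosomes was 9.29% in WT (8.67 to 9.95%), 9.05% in dKO (8.71 to 9.41%) and 10.3% in BAF53B (9.88 to 10.8%). When all lists were cut to an equal length of 7880 peaks, keeping those with the best q-values, the shares became 9.29%, 6.75% and 8.45%. Per Mb of sequenced bases, the 4 chromosomes held 1.79 WT, 5.65 dKO and 4.29 BAF53B peaks, against 3.0, 9.68 and 6.38 on the other autosomes. Promoter peaks, defined here by a summit within 3 kb of the start of a protein-coding gene, came to 0.809 WT, 2.05 dKO and 1.59 BAF53B peaks per Mb, against 1.81, 3.94 and 2.99 on the other autosomes. Distal peaks came to 0.986, 3.59 and 2.70 per Mb, against 1.19, 5.74 and 3.39, so that in dKO the larger part of the gap was distal.

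**Figure D1:**
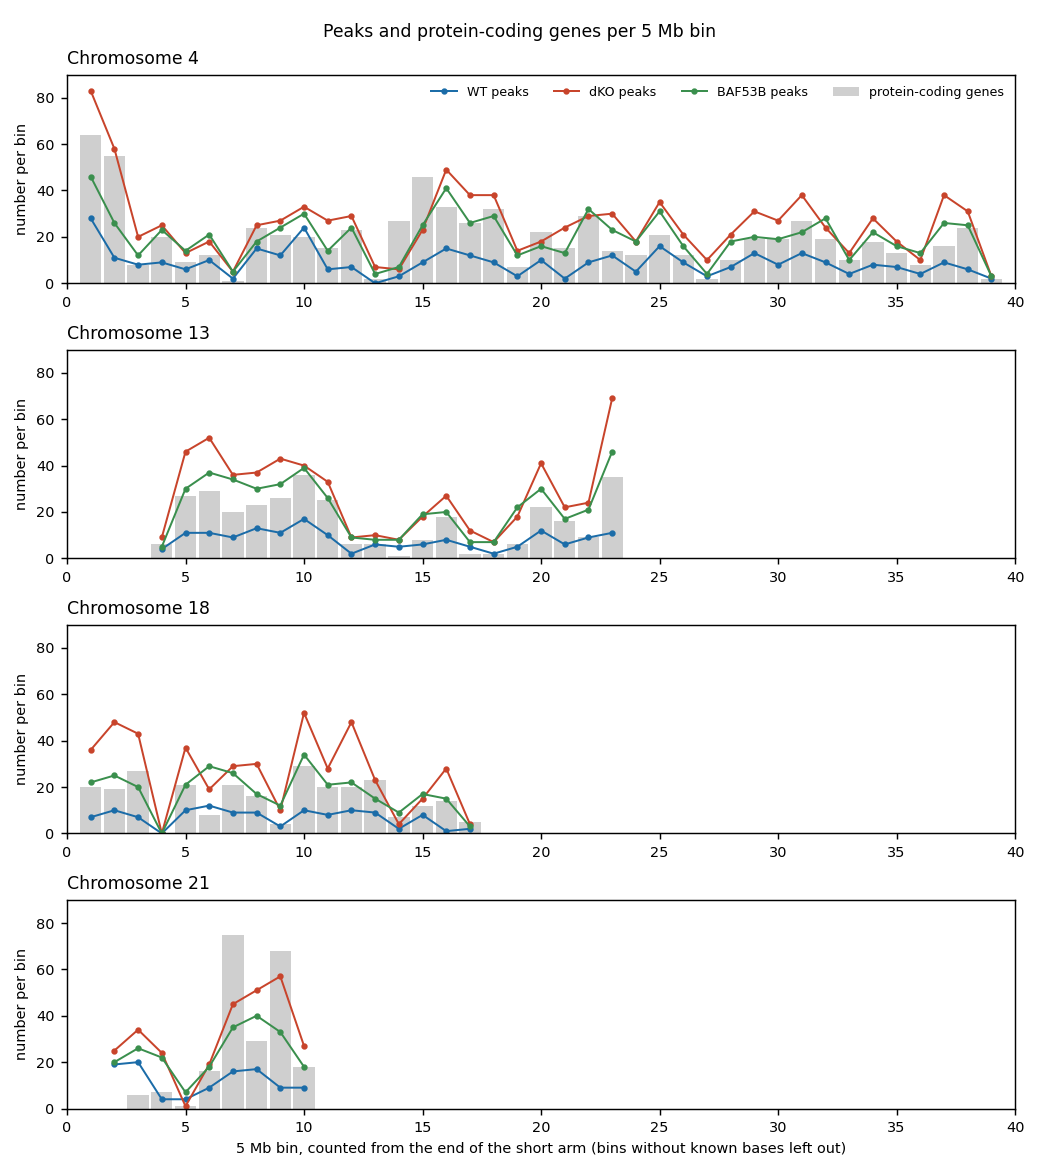
Peaks of the 3 lists (lines) and protein-coding genes (grey bars) in each 5 Mb bin of chromosomes 4, 13, 18 and 21, with the bin number from the end of the short arm on the x axis and the number per bin on the y axis. The dKO line runs highest over gene-rich bins, with 83 peaks in the first bin of chromosome 4, and the 3 lines come close to each other in bins with few genes.

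**Figure D2:**
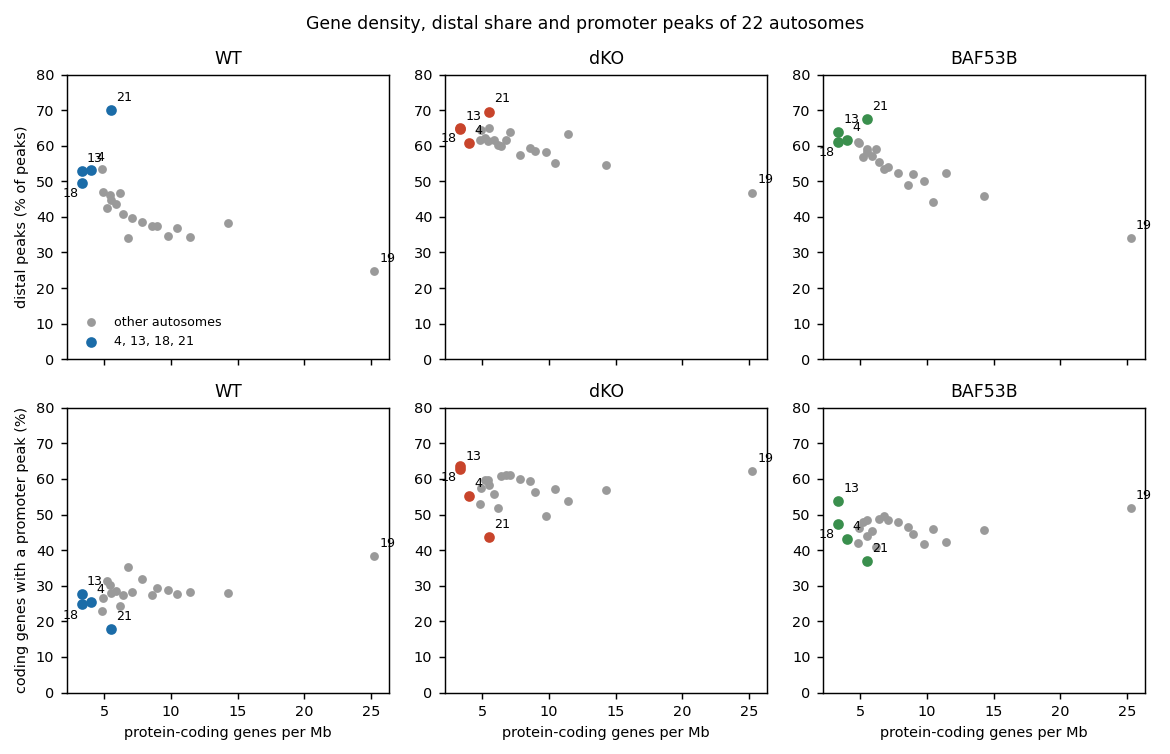
Distal share of the peaks in percent (upper row) and percent of protein-coding genes with a promoter peak (lower row) against protein-coding genes per Mb of sequenced bases, for 22 autosomes (points) and the 3 lists (columns). Chromosomes 4, 13, 18 and 21 are coloured and numbered, and chromosome 21 lies highest in the upper row and lowest in the lower row in each list.

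The members were thus more often distal. In WT NPCs 402 of 732 members were distal (54.9%, 51.3 to 58.5%), against 39.7% on the other autosomes (38.5 to 40.8%). The share was 63.6% in dKO (61.6 to 65.6%), against 59.3%, and 62.9% in BAF53B (60.6 to 65.1%), against 53.2%. The 4 chromosomes stood among the 5 highest distal shares of the WT list, with 70.1% on chromosome 21 and 49.6 to 53.0% on the other 3, as the plot of the 22 autosomes shows. Chromosome 8, which is not a member, reached 53.4%. In the dKO list chromosome 4 was ordinary at 60.7%, in 10th place from the lowest. Across the 22 autosomes Spearman's rho between gene density and distal share was −0.87 in WT, −0.70 in dKO and −0.92 in BAF53B (n = 22, a description of points that share a library). At equal list length the gap was absent in dKO, with 31.0% distal members (27.2 to 35.1%) against 30.6% on the other autosomes.

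Distal members also lay far from genes. Their median distance to the start of a protein-coding gene was 111 kb in WT, 77.2 kb in dKO and 101 kb in BAF53B, against 48.1, 43.0 and 52.3 kb on the other autosomes. More than 100 kb away were 54.0% of the WT distal members (49.1 to 58.8%), 42.6% in dKO and 50.2% in BAF53B, against 34.0%, 29.7% and 35.0%. In WT 56.2% lay between genes, 38.1% in introns and 5.72% in exons. Within 3 kb of the start of another annotated gene, such as a long non-coding RNA or a pseudogene, were 16.9%, 15.6% and 13.7%, close to the 18.4%, 16.1% and 15.9% of the other autosomes. The dKO members closer to genes were also richer in GC. The median GC of the bases within 100 bp of a distal summit was 48.3% in WT, 53.2% in dKO and 47.8% in BAF53B, each below the 51.7%, 55.7% and 51.2% of the other autosomes, while promoter members had 67.2%, 68.7% and 67.7%, slightly above the 65.7%, 67.7% and 66.7% there.

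Promoter peaks were also counted per gene rather than per Mb. Of 1566 protein-coding genes, 386 carried one in the WT list (24.6%, 22.6 to 26.8%), 886 in dKO (56.6%, 54.1 to 59.0%) and 708 in BAF53B (45.2%, 42.8 to 47.7%). The other autosomes had 29.4% (28.8 to 30.1%), 57.3% and 46.1%, and in the full lists the intervals do not overlap in WT alone. With only peaks of −log10 q of at least 10, or at equal list length, the share was lower than elsewhere in all 3 lists with intervals that do not overlap. In dKO it was 38.6% against 43.7% in the former and 27.7% against 34.8% in the latter. Chromosomes 13 and 18, the poorest in genes, had the 2 highest shares of the dKO list, 62.8% (57.5 to 67.9%) and 63.5% (57.6 to 69.1%). Chromosome 21 had the lowest of all autosomes in each list, 17.7% in WT, 43.6% in dKO and 36.8% in BAF53B.

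Clustered gene families were examined for that low share, chosen after the values were seen. Of the 49 keratin-associated protein genes of chromosome 21, which encode hair matrix proteins, none had a promoter peak in WT or BAF53B and 1 had one in dKO (KRTAP10-5). Without them the chromosome had promoter peaks at 22.8% (17.2 to 29.7%), 55.6% (48.1 to 62.8%) and 47.4% of 171 genes. Leaving out genes that almost all lack a peak raises the share by construction. No family was left out on the other autosomes, so their shares are not comparable with these. The cause of the low share was not tested. The 10 UGT2 glucuronosyltransferase genes of chromosome 4, detoxification enzymes of the liver, had none in any list. Of its 13 CXC chemokine genes 1 had a promoter peak, in dKO (CXCL2), and of its 7 alcohol dehydrogenase genes 1, in dKO (ADH5, the member active in most tissues). Of 7 desmosomal cadherin genes on chromosome 18, DSC2 and DSG2 had one in dKO and DSC2 alone in BAF53B. Of 10 clade B serpin genes there, SERPINB8 had one in WT and dKO, SERPINB2 in dKO and SERPINB12 in BAF53B.

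In the full lists, promoter peaks were gained in dKO and seldom lost. A dKO promoter peak with no WT counterpart occurred there at 505 of 1566 genes (32.2%, 30.0 to 34.6%), against 28.4% of all 20046 protein-coding genes. The gain depends on list length. At equal list length 27.7% of the 1566 genes had a promoter peak in dKO and 24.6% in WT. The number of dKO promoter peaks per WT promoter peak was then 1.11 (0.958 to 1.29). The dKO promoter peak of highest fold without a WT peak was named for each chromosome. On chromosome 4 it was at the shared start of HELQ, a helicase gene, and MRPS18C, a mitochondrial ribosomal protein gene (59 fragments in dKO and 57 in BAF53B). On chromosome 13 it was at KBTBD6, an adaptor of a ubiquitin ligase (64 and 56). On chromosome 18 it was at ME2, the mitochondrial malic enzyme (91 and 59), and on chromosome 21 at RCAN1, a calcineurin regulator (77 and 46). The BAF53B list had each of them with a lower pileup, which the choice by dKO fold favours. That the WT list had none follows from the rule of choice. PRMT2, an arginine methyltransferase gene at the end of chromosome 21, had the largest dKO pileup among the 3 such peaks of highest fold there, 84 fragments against 49 in BAF53B.

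The opposite pattern was rare. A WT promoter peak with no dKO counterpart occurred at 5 genes (0.319%, 0.136 to 0.745%), against 0.409% of all genes. They were SORCS2, a sorting receptor of neurons (34 fragments, chr4:7192391-7192627), LGI2, a secreted neuronal protein (29, chr4:25032502-25032841), CYP2U1, a cytochrome P450 (29, chr4:107930951-107931845), DTNA, which encodes dystrobrevin alpha (33, chr18:34493145-34493537), and SOCS6, a suppressor of cytokine signalling (28, chr18:70288865-70289134). All 5 were weak, with a −log10 q of 5.09 to 7.83 where the lists end at 5. CYP2U1, DTNA and SOCS6 had a promoter peak again in BAF53B, with 45, 41 and 31 fragments. A dKO promoter peak with no BAF53B counterpart occurred at 228 genes (14.6%), against 13.4% of all genes, and the reverse at 50 (3.19%, 2.43 to 4.19%), against 2.0%. The 628 genes with no promoter peak in any list made up 40.1%, and 363 genes (23.2%) had one in all 3.

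Promoter peaks were then read at 175 genes of the 4 chromosomes in 6 groups. The groups are transcription factor, adhesion and guidance, neuronal receptor, channel and cytoskeleton, matrix, signalling, and chromatin and cell cycle genes. Promoters were open at 31 of the 175 in WT (17.7%), 99 in dKO (56.6%) and 80 in BAF53B (45.7%). Of all genes of these chromosomes, 24.6%, 56.6% and 45.2% were open. The shares in dKO and BAF53B were near that background and the WT share lay below it. Each pileup was scaled to the genome background of its list. Of the 31 genes with both a WT and a dKO peak, 14 were at least 1.5-fold higher in dKO and 0 were at least 1.5-fold lower. Of the 317 shared WT promoter members 51.4% were higher and 0.315% lower to that extent, and of all 6255 shared peaks 59.8% and 0.448%.

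The chromatin and cell cycle genes were open most often, at 12, 23 and 22 of 28 genes in WT, dKO and BAF53B. These are 42.9%, 82.1% and 78.6%, against the same background of 24.6%, 56.6% and 45.2%. SON, a nuclear speckle gene, had pileups of 40, 106 and 76 fragments. HMGB2, which encodes a DNA-bending protein of dividing cells, had 56, 109 and 70, and HMGN1, a nucleosome-binding protein, had 48, 97 and 61. In each of them dKO was highest and WT lowest. HMGB1 had the highest pileup of the group in WT, with 76, 97 and 84. Of its members only ASXL3, a partner of a histone deubiquitinase, had a lower pileup in dKO than in WT, 29 against 30 fragments, with no peak in BAF53B. MAD2L1, a spindle checkpoint gene, had no WT peak and was higher in BAF53B (72) than in dKO (55).

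Of 35 transcription factor genes, promoters of 5 were open in WT (14.3%), of 16 in dKO (45.7%) and of 15 in BAF53B (42.9%), to be read against the same background of 24.6%, 56.6% and 45.2%. The 5 open in WT were open in all lists. ONECUT2, a neuronal homeobox gene, had 44, 81 and 54 fragments, and GABPA, an ETS factor, had 47, 73 and 52. ZNF521, an early neural factor, had 42, 54 and 49. Factors without a WT peak differed between the other lists. SOX1, an early neural factor, was higher in BAF53B (67) than in dKO (46). ZIC2, a zinc finger factor of the neural plate, had a peak in dKO alone (62), as had SOX21, LEF1, TSHZ1 and SETBP1. OLIG1 and OLIG2, neighbouring oligodendrocyte lineage factors, had a peak in BAF53B alone (33 and 39), as had POU4F1 (30) and NEUROG2 (32).

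Neural adhesion and guidance genes were open at 1 of 33 in WT (3.03%), 22 in dKO (66.7%) and 13 in BAF53B (39.4%), against that background. The 1 gene open in WT was PCDH9, a protocadherin, with pileups of 36, 52 and 67 and thus highest in BAF53B. EFNB2, an ephrin ligand, had 64 fragments in dKO and no other peak. PCDH18, SLIT2 and FAT4 had 52, 51 and 50 in dKO and 37, 41 and 40 in BAF53B. PCDH10, PCDH17 and SLITRK5 had a peak in BAF53B alone, with 46, 55 and 42. The netrin receptor gene DCC (41 and 39) and the N-cadherin gene CDH2 (42 and 42) were nearly level between dKO and BAF53B.

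Receptor, channel and cytoskeleton genes of neurons were open at 6, 15 and 14 of 28 (21.4%, 53.6% and 50%). The background for this and the next 2 groups is again 24.6%, 56.6% and 45.2%. ITSN1, a scaffold of synaptic vesicle uptake, had 60, 140 and 96 fragments, and TIAM1, a Rac exchange factor, had 40, 81 and 40. UCHL1, a neuronal deubiquitinase, was highest in BAF53B (32, 55 and 62). CAMK2D, a calcium-dependent kinase, had no WT peak, 67 fragments in dKO and 59 in BAF53B. Of the signalling genes 7, 18 and 11 of 31 were open (22.6%, 58.1% and 35.5%). DYRK1A, a kinase gene, had 46, 114 and 80, SMAD2 had 44, 83 and 37, and SPRY2, a feedback inhibitor of growth factor receptors, had 41 and 69 and no BAF53B peak. Matrix genes were open at 0, 5 and 5 of 20 (0%, 25% and 25%), led by the collagen gene COL25A1 (50 in dKO and 39 in BAF53B). The plot of promoter pileups by gene shows the 31 genes with a WT and a dKO peak.

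**Figure D3:**
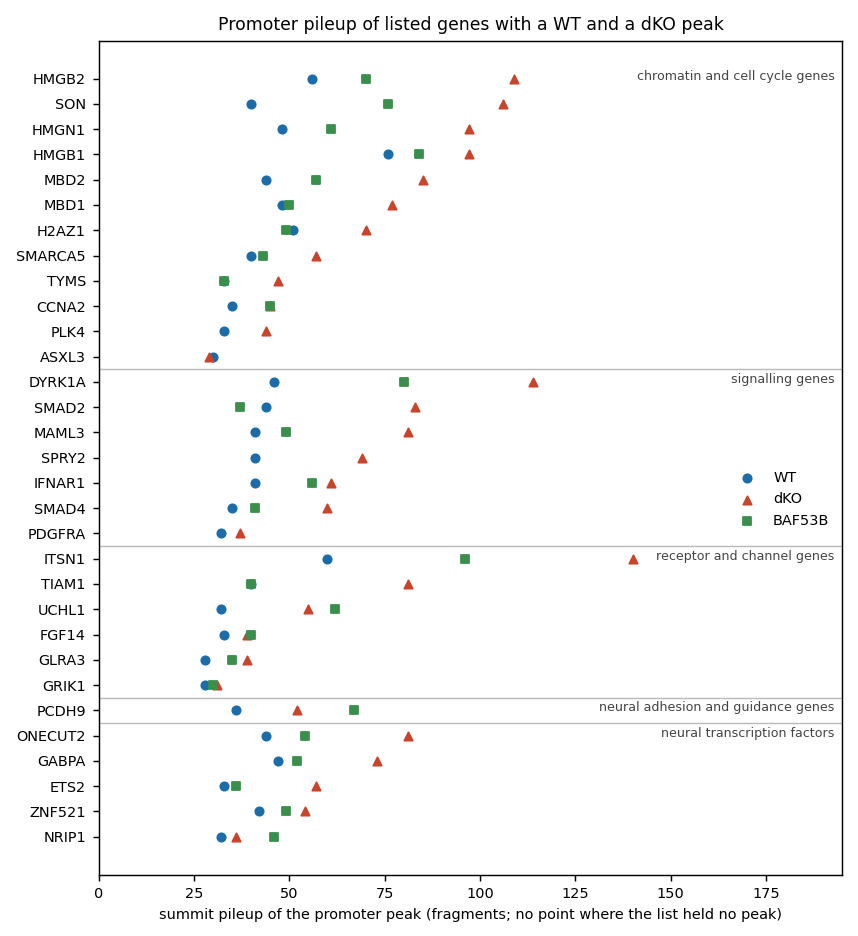
Summit pileup in fragments (x axis) of the promoter peak in WT (circles), dKO (triangles) and BAF53B (squares) for the 31 listed genes with a peak in WT and in dKO (y axis), grouped by role. The triangle lies farthest right at most genes, up to 140 fragments at ITSN1, and PCDH9, UCHL1 and NRIP1 are among those where the square lies farther right.

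The next comparison asked which members of one list were called in another. Of the WT members 243 of 732 had no overlapping dKO peak (33.2%, 29.9 to 36.7%), against 20.6% of the whole WT list and 19.4% on the other autosomes. Nearly all of the difference lay at distal sites. Only 13 of 330 WT promoter members had no dKO peak (3.94%, 2.32 to 6.62%), against 2.99% on the other autosomes, while 230 of 402 distal members had none (57.2%, 52.3 to 62.0%), against 44.4% (42.6 to 46.3%). By chromosome the distal share without a dKO peak was 65.1% on chromosome 13, 65.5% on chromosome 18, 58.5% on chromosome 4 and 38.7% on chromosome 21. Against the BAF53B list, 215 WT members had no peak (29.4%, 26.2 to 32.8%), where 20.5% of the whole list had none.

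The WT members found in neither other list numbered 179 (24.5%, 21.5 to 27.7%), against 13.9% (13.1 to 14.7%) on the other autosomes. They were 95.5% distal, and the median peak had 27 fragments, a −log10 q of 5.61, close to the threshold of 5, and 46.3% GC. The 453 WT members found in both other lists were 34.2% distal, and the median one had 38 fragments, a −log10 q of 9.38 and 64.2% GC. With only peaks of −log10 q of at least 10 kept in both lists, 14.9% of the WT members had no dKO peak (10.9 to 20.0%), against 4.99% (4.24 to 5.88%) on the other autosomes.

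In the dKO list 1816 of 2303 members had no WT peak (78.9%, 77.1 to 80.5%), against 75.6% of the whole list. At promoters it was 62.2% (58.8 to 65.4%), against 55.9% (54.9 to 56.9%) on the other autosomes, and at distal sites 88.4%, against 88.6%, with intervals that overlap. Members found in dKO alone numbered 1319 (57.3%), with a median pileup of 31 fragments, and those found in all 3 lists had 61. In the BAF53B list 42.0% of the members were in neither other list (39.7 to 44.3%), against 29.5% (28.8 to 30.3%) on the other autosomes. These 735 peaks were 90.3% distal, with a median pileup of 30 fragments and 46.8% GC, values near those of the WT-only members. In all, 1236 BAF53B members had no WT peak (63.3% of the whole list had none), and 798 had no dKO peak (45.6%, 43.3 to 47.9%), against 33.3%. Of the dKO members 58.7% had no BAF53B peak (56.7 to 60.7%), against 55.7%.

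Peak numbers rose from WT to dKO by a similar factor on the 4 chromosomes and elsewhere, 3.15 (2.90 to 3.42) against 3.23 (3.14 to 3.32), but were made up differently. Promoter peaks rose 2.54-fold (2.24 to 2.88), against 2.18-fold (2.10 to 2.26), and distal peaks rose 3.64-fold (3.26 to 4.07), against 4.83-fold (4.64 to 5.03). The distal ratio was 5.09 on chromosome 18, 4.22 on chromosome 13, 3.33 on chromosome 4 and 2.63 on chromosome 21. The number depends on the length of the lists, since at equal list length the 4 chromosomes had 0.727 dKO peaks per WT peak (0.650 to 0.813), and 0.410 at distal sites, against 1.03 and 0.794 on the other autosomes. From dKO to BAF53B the number of members fell to 0.760 of the dKO number (0.714 to 0.809), and less than on the other autosomes, where it fell to 0.659 (0.646 to 0.673). At distal sites it was 0.751 against 0.591, and at promoters 0.776 against 0.758. This ratio too depends on list length. At equal list length the members were 6.75% of the dKO list and 8.45% of the BAF53B list, so their number did not fall.

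The level at shared peaks followed the same line. The level is the summit pileup over the genome background of its list, the lowest local background in the list, which was 6.33 fragments in WT, 6.81 in dKO and 6.78 in BAF53B and scales with the number of sequenced fragments. Over 489 shared WT members the median log2 ratio of dKO to WT was 0.49 (0.46 to 0.56), or 1.41-fold, against 0.71 over all 6255 shared peaks. At promoters it was 0.60 (0.53 to 0.67), against 0.77 over all, and at distal sites 0.29 (0.21 to 0.39), against 0.49. Of the 489, 213 were at least 1.5-fold higher in dKO (43.6%) and 5 at least 1.5-fold lower (1.02%), where 59.8% and 0.448% of all shared peaks were. Chromosomes 21, 4 and 18 had the 3 lowest medians of the 22 autosomes, 0.43, 0.48 and 0.49, and chromosome 13 the sixth lowest, 0.57, whereas chromosome 19 had the highest, 0.99. On the scale of the deposited fold, which divides by the local background, the median was 0.38, against 0.44 over all shared peaks.

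From WT to BAF53B the median log2 level ratio was 0.20 over 517 shared members, against 0.24 over all, with 62 members at least 1.5-fold higher (12.0%, against 14.9%) and 4 lower (0.774%, against 0.271%). From dKO to BAF53B it was −0.18 (−0.22 to −0.15) over 950 shared members, against −0.36 over all 11275. Of the 950, 165 were at least 1.5-fold lower in BAF53B (17.4%, against 30.0%) and 30 at least 1.5-fold higher (3.16%, against 1.30%). At shared peaks, the level of the members thus differed less between dKO and each of the other groups than that of all shared peaks. On the scale of the deposited fold the gap was smaller, with medians of −0.17 against −0.20 from dKO to BAF53B. Members without a counterpart in the other list are not covered by these ratios.

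The GC content around a peak moved with this ratio. In the 10 kb around the WT summit, 19.2% of the shared members had under 40% GC, against 8.94% on the other autosomes, and 11.5% had 50% or more, against 27.4%. Within the class under 40% GC the median log2 ratio was 0.25 (0.13 to 0.33) on the 4 chromosomes and 0.28 (0.25 to 0.36) on the others. It was 0.48 (0.41 to 0.56) against 0.62 (0.59 to 0.65) at 40 to 45% GC, 0.66 against 0.76 at 45 to 50% and 0.66 (0.50 to 0.87) against 0.91 (0.88 to 0.93) at 50% or more. The ratio therefore went up with GC in both sets, up to 50% GC on the 4 chromosomes, and above 40% GC the members stayed lower, with overlapping intervals at 45 to 50%. The classes were chosen after the data were seen, and whether base composition plays a part in the difference beyond these classes was not tested.

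**Figure D4:**
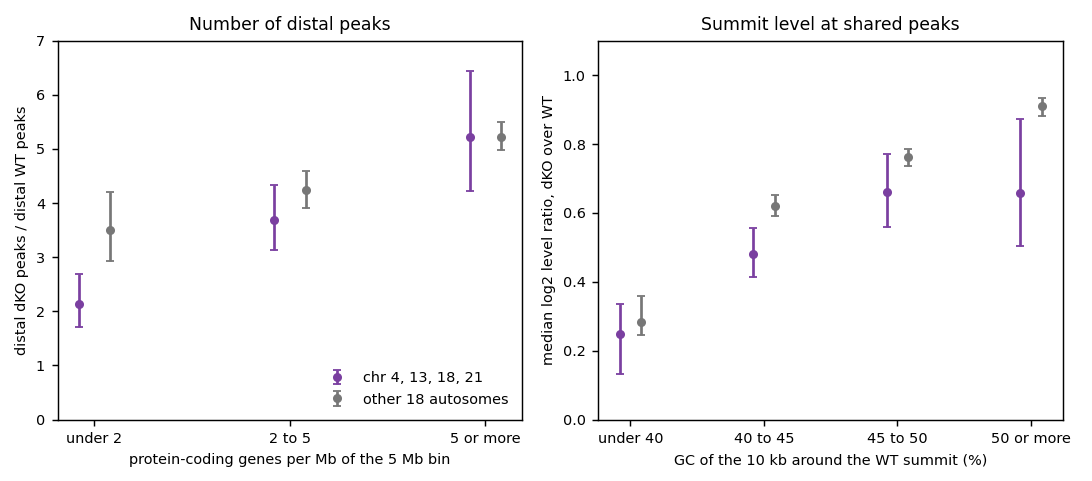
Left, distal dKO peaks per distal WT peak (y axis) in 5 Mb bins with under 2, 2 to 5, and 5 or more protein-coding genes per Mb (x axis). Right, median log2 level ratio of dKO to WT at shared peaks (y axis) by GC content of the surrounding 10 kb in percent (x axis). Purple points are chromosomes 4, 13, 18 and 21, grey points the other 18 autosomes, and bars are 95% intervals from counting (left) or for the median (right). Both values go up from left to right, except between the last 2 purple points of the right panel, and the largest relative gap between the sets in the left panel is in the bins with the fewest genes, 2.14 against 3.50.

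Along the chromosomes, peaks were counted in 82 bins of 5 Mb with at least 2.5 Mb of sequenced bases. Only 24.4% of these bins had 5 or more protein-coding genes per Mb, against 54.5% of the 473 bins of the other autosomes, and 29.3% had under 2, against 9.73%. The peaks of dKO followed the genes. Spearman's rho between genes and distal peaks per bin was 0.61 in dKO, 0.51 in BAF53B and 0.32 in WT, and between GC content and distal peaks 0.78, 0.56 and 0.35 (n = 82 bins of 1 library each, a description). The bin with the most dKO peaks was 0 to 5 Mb of chromosome 4 with 64 genes, 49.8% GC and 28 WT, 83 dKO and 46 BAF53B peaks. On chromosome 13 it was the last bin, 110 to 115 Mb, with 35 genes and 11, 69 and 46 peaks. On chromosome 18 it was 45 to 50 Mb with 29 genes and 10, 52 and 34 peaks, and on chromosome 21 40 to 45 Mb with 68 genes and 9, 57 and 33 peaks. In these 4 bins, 3 of them at or near a chromosome end, dKO had most peaks and WT fewest. They were picked by their dKO count, which favours a high place of dKO.

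Gene deserts looked different. In the 24 bins with under 2 genes per Mb, dKO had 2.03 distal peaks per Mb and BAF53B 2.06, against 0.948 in WT. On the other autosomes such bins held 2.40, 1.83 and 0.684. Distal peaks thus rose 2.14-fold from WT to dKO in the deserts of the 4 chromosomes (1.71 to 2.69), against 3.50-fold (2.92 to 4.20) in those of the others. At 2 to 5 genes per Mb it was 3.69 (3.13 to 4.34) against 4.23 (3.91 to 4.58), and at 5 or more 5.21 (4.22 to 6.44) against 5.23 (4.97 to 5.49). Bins near the centromeres of chromosomes 4 and 21 were then left out, a choice made after seeing the data. All bins of the other autosomes stayed in. The desert ratio of the 4 chromosomes became 2.49 (1.90 to 3.27), which overlaps that of the other autosomes, and their WT density fell to 0.672 per Mb. The desert of chromosome 4 at 60 to 65 Mb, with 2 genes, had 0 WT, 7 dKO and 4 BAF53B peaks. That of chromosome 13 at 65 to 70 Mb, with 1 gene, had 5, 8 and 8. On chromosome 21, 20 to 25 Mb with 1 gene had 4 WT and 7 BAF53B peaks, all distal, and 1 dKO peak, at a promoter. On chromosome 18, the bin of 15 to 20 Mb, at the centromere, had 0 genes and no peak in any list in 4.95 Mb of sequenced bases. It is counted among the 24 bins, and whether reads could be placed in it was not tested.

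The bins near the centromere of chromosome 21 stood apart in the opposite way. The 10 Mb from 5 to 15 Mb held 38 of the 75 distal WT peaks of that chromosome (50.7%), 56 of 197 in dKO (28.4%) and 44 of 148 in BAF53B (29.7%), or 4.50, 6.64 and 5.21 per Mb, where the rest of the chromosome had 1.17, 4.46 and 3.29. They were narrow, with median widths of 261, 293.5 and 364 bp, and 57.9% of the WT ones were in all 3 lists. The strongest, chr21:10325694-10325978 in WT, had pileups of 183, 216 and 213 fragments and a fold of 20.1, the highest of all members. On chromosome 4, 45 to 50 Mb held 20 of 183 distal WT peaks (10.9%), 23 of 610 in dKO and 22 of 478 in BAF53B. There the peak of highest fold was chr4:49108215-49108491 in BAF53B, with 59, 61 and 101 fragments. Whether reads of near-identical copies were placed in these bins was not tested. Without them the WT distal share of the members was 51.4% (47.6 to 55.2%), still above the 39.7% of the other autosomes. No bins of the other autosomes were left out for this comparison.

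Outside those bins, the distal members of highest fold on chromosomes 4 and 13 lay at starts of genes other than protein-coding ones. On chromosome 4 it was the start of SCOC-AS1 in WT (68, 91 and 75 fragments), that of the pseudogene FAM86EP in dKO (40, 93 and 52, chr4:3955377-3956185) and that of the pseudogene ABCA11P in BAF53B (60, 117 and 79). On chromosome 13 it was 1 site in all lists, at the start of an uncharacterized gene 43.5 kb from UBE2L5 (61, 113 and 103, chr13:30465643-30466459 in dKO). On chromosome 18 it was the AP-1 site near LMAN1 printed above. On chromosome 21 it was a site 13.6 kb from the start of NDUFV3 in WT and dKO (47, 124 and 60, chr21:42892682-42893782 in dKO) and one 69.7 kb from that of DYRK1A in BAF53B (33, 66 and 50). All of these were called in every list, and dKO had the highest pileup at each.

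The local background of a peak, the larger of the genome background and the fragments expected from the surrounding 10 kb, was lower on these chromosomes. At distal members its median was 7.21 fragments in WT, 7.71 in dKO and 7.92 in BAF53B, or 1.14, 1.13 and 1.17 times the genome background. On the other autosomes it was 1.23, 1.34 and 1.25 times. At promoter members it was 1.41, 1.48 and 1.48 times, against 1.45, 1.71 and 1.52. The gap was widest in dKO. The deposited folds were close all the same, with medians at distal peaks of 3.68, 3.50 and 3.60 on the 4 chromosomes and 3.68, 3.47 and 3.60 on the others, because the summit pileups differed too (30, 31 and 31 fragments against 32, 35 and 33).

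At equal GC the backgrounds came close to each other. Distal members in surroundings of 40 to 45% GC had 1.24 times the genome background in WT (1.20 to 1.28), 1.17 in dKO (1.14 to 1.19) and 1.21 in BAF53B (1.18 to 1.23), against 1.22, 1.20 and 1.24 on the other autosomes. Under 36% GC the medians were 1.0 to 1.02 in both sets and all lists, at or near the lowest value a list can hold. At 50% or more in dKO, 1.77 (1.62 to 1.88) on the 4 chromosomes was below the 1.97 (1.95 to 1.98) on the others. Surroundings under 36% GC took 16.7% of the WT, 9.83% of the dKO and 17.0% of the BAF53B distal members, against 6.77%, 3.78% and 7.49% elsewhere.

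**Figure D5:**
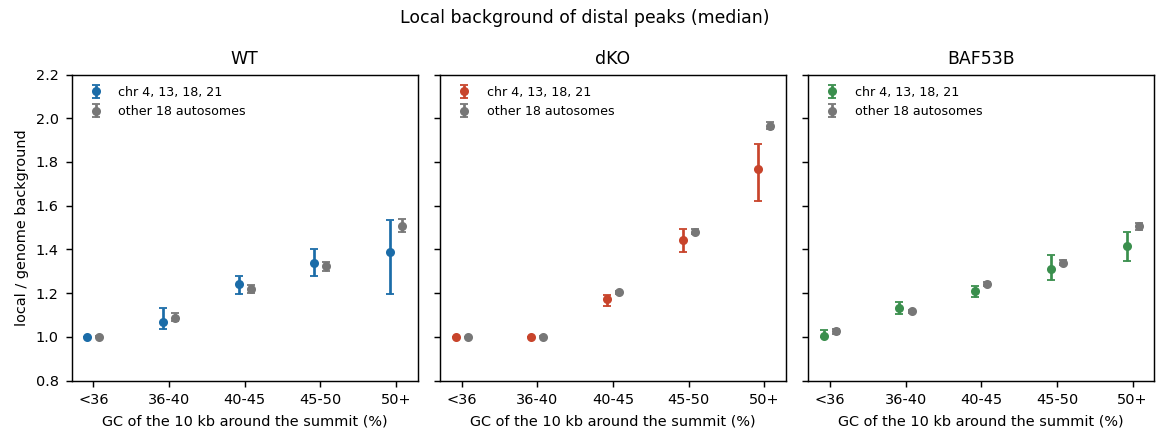
Median local background of distal peaks as a multiple of the genome background of the list (y axis) by GC content of the surrounding 10 kb in percent (x axis), for WT, dKO and BAF53B (panels). Coloured points are chromosomes 4, 13, 18 and 21, grey points the other 18 autosomes, and bars are 95% intervals of the median. The value goes up with GC in all panels, steepest in dKO, where it is flat under 40% GC, and the sets lie close together except at 50% or more.

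Letters of known motifs were counted around the summits. The AP-1 letters were found, within 100 bp of the summit and on either strand, at 48 of 402 distal WT members (11.9%, 9.13 to 15.5%), 76 of 1465 in dKO (5.19%, 4.16 to 6.45%) and 149 of 1100 in BAF53B (13.5%, 11.7 to 15.7%), where all distal peaks of the 3 lists had 11.4%, 4.74% and 12.8%. In BAF53B distal members without a dKO peak they were found at 16.5% (14.0 to 19.4%), and in those with one at 7.94% (5.62 to 11.1%). Over the whole BAF53B list they were found at 17.6% and 6.86% of such distal peaks. Promoter members had them at 1.52%, 1.19% and 1.38%. SOX letters (CCATTGT or CCTTTGT) were found at 9.20%, 8.46% and 11.2% of distal members, and the E-box letters CCATCTG at 6.97%, 5.05% and 5.27%. For the AP-1, SOX and E-box letters the intervals of the distal shares overlap those of the other autosomes in each list. NFY letters (AGCCAAT, the CCAAT box) were found at 3.98% (2.46 to 6.37%), 2.46% (1.78 to 3.38%) and 4.64% of distal members, against 7.81% (6.87 to 8.86%), 4.25% (3.92 to 4.60%) and 5.16% on the other autosomes, and the intervals do not overlap in WT and dKO. SP letters (GGGGCGGGG, a GC box) were found at 3.98%, 2.53% (1.84 to 3.46%) and 3.18% (2.30 to 4.39%), against 6.52%, 5.26% (4.89 to 5.65%) and 5.45% (4.97 to 5.97%), and the intervals do not overlap in dKO and BAF53B. The CTCF motif, named after the insulator protein, was found at 2.74% (1.53 to 4.83%), 4.98% (3.98 to 6.22%) and 5.09% (3.94 to 6.55%) of distal members, against 4.62%, 7.04% (6.63 to 7.49%) and 5.97% on the other autosomes, and in dKO the intervals do not overlap. A match of letters is not a bound site.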

How the data were processed

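ATAC-seq peak lists of WT, dKO and BAF53B NPCs were used. Per the authors and their processing notes, reads were trimmed with cutadapt 1.13, aligned to hg38 with Bowtie2 2.2.5, freed of duplicates (SAMtools 1.3.1, Picard 1.90) and passed to MACS2 callpeak, whose options and read shift are not given in the sources used here. Each deposited list holds a fold over local background (a ratio of summit pileup and background, with 1 added to each), a −log10 p and −log10 q (at least 5) and a display score, which was not used. Depth per sample is not held by the lists. Pileup and background were recovered from fold and −log10 p, checked on simulated data. Genes are GENCODE 44. Lists shared a peak at 1 bp of overlap. Shares have Wilson intervals at 95%, count ratios log-scale Poisson intervals and medians order-statistic intervals. Since both replicates share 1 list, no test was run.

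The members and gene lists were chosen with earlier results of these data known. Named genes are those of highest fold per chromosome and list, the 3 dKO promoter peaks of highest fold without a WT peak per chromosome, the listed gene groups and all genes with a WT but no dKO promoter peak. Clustered families, GC classes and the omission of bins near centromeres were added after seeing the data. Software was Python 3.11.15 with pysam 0.24.0, SciPy 1.17.1, NumPy 2.4.6, pandas 2.3.3 and, for plots, matplotlib 3.10.9. Some items are not reported here.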

Additional observations from a re-analysis of the deposited data

How the results depend on the processing

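Of 125 alternative values 76 stayed within the interval of the reported value, 47 moved beyond it and 2 turned direction. Those 2 were the dKO to WT peak number and its distal part, which fell from 3.15 and 3.64 to 0.727 and 0.410 at equal list length, where the dKO distal share also fell from above the WT share to below it. The cause of the moves was not tested beyond what each alternative removes. No paired analysis was possible because both replicates of a group share 1 peak list. With a −log10 q of at least 10, the share of each list (WT, dKO, BAF53B) was 7.89, 7.51 and 8.23%, the distal share 34.0, 39.7 and 41.2%, genes with a promoter peak 12.1, 38.6 and 26.2%, the dKO to WT peak number 3.73 (promoter 3.41, distal 4.35) and WT peaks without a dKO peak 14.9%. At equal list length, dKO and BAF53B had a share of 6.75 and 8.45%, a distal share of 31.0 and 43.4% and promoter peaks at 27.7 and 28.9% of genes, the promoter number ratio was 1.11, 54.1% of WT peaks had no dKO peak, 37.4% of dKO peaks no WT peak, and the median log2 level ratio was 0.70. A 1 kb promoter window gave distal shares of 67.4% (dKO) and 66.3% (BAF53B) and promoter peaks at 52.6 and 42.3% of genes, and starts of all annotated genes gave distal shares of 45.6, 53.7 and 54.2%. With 50% reciprocal overlap, 50.3% of WT and 84.2% of dKO peaks were without a partner. The log2 ratio of deposited folds was 0.38, against 0.44 over all shared peaks. Shares fell by construction to 4.91, 5.10 and 5.75% without chromosome 4 (dKO distal share 65.9%), 7.22, 6.85 and 7.69% without 13, 7.80, 7.27 and 8.51% without 18, and 7.93, 7.94 and 9.03% without 21. Without the bins near the centromeres, left out after seeing the data, the WT share was 8.56%. Depth is unknown, and a peak that is absent from a list was not detectable at its threshold.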
